A study of Mus musculus with 24 samples.

Results

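The potassium channel genes described here are the genes whose symbol begins with Kcn, followed by further letters and a number, in the annotation of the Affymetrix mouse expression array used. Of 18194 genes with a probe set of their own, 84 met this rule. They comprise pore-forming subunits, auxiliary subunits and 3 noncoding RNAs named after a neighbouring channel gene (Kcnq1ot1, Kcnmb4os1 and Kcnmb4os2). The array was read in neurons cultured from embryonic day 14 mice on a C57Bl/6 background, on 24 arrays in 12 groups of 2. Cells were Npas4 knockout (KO) or wild type (WT) for Npas4, an activity-induced transcription factor, from littermates, and came from the medial ganglionic eminence (MGE), the source of many inhibitory interneurons, or from the cortex (CTX), a source rich in excitatory neurons. All cultures, those at 0 h included, were kept overnight in tetrodotoxin (TTX) and AP-5, blockers of sodium channels and of NMDA receptors, before 55 mM KCl was applied to depolarize them. Exposure to KCl lasted 0, 1 or 6 h. The 12 groups are MGE KO, MGE WT, CTX KO and CTX WT, each at 0, 1 and 6 h. The design of the knockout allele and the number of animals behind a culture are not given in the sources used here, so p-values measure the spread between arrays, which may be partly technical.

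Potassium channels set the resting potential of a neuron and end its action potentials. Voltage-gated Kv subunits assemble as tetramers, and the modulatory Kv subunits form no channel alone but alter the channels they join. Inward rectifiers (Kir) and tandem-pore channels (K2P) hold the membrane near rest, and SK and BK channels open on calcium entry and shape the afterhyperpolarization. Auxiliary Kv beta, KChIP and KCNE subunits change gating or surface delivery of the pore subunits they bind.

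Testing required a probe set brighter than the median of its array on 2 or more arrays. Of the 84 potassium channel genes 55 passed, and the other 29 had mean log2 intensities between 3.25 and 6.47, against array medians of 6.84 to 6.92. A value below the median was not shown to be above background. Of the 55, Kcnh8 passed on 3 arrays, all from CTX cultures at 6 h, so it was tested only through the samples where it is high. Kcna5 likewise passed on MGE arrays alone, and Kcnj12 on arrays at 0 or 1 h alone. Values are log2 intensities, changes are differences of group means with the standard error (SE) of the limma fit, and calls were made where the p adjusted over all 12378 genes tested was under 0.05. Probe sets differ in brightness for reasons unrelated to transcript number, so levels were compared within a gene and not between genes.

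The correlation between a group's arrays, taken across genes, was 0.965 to 0.992, except for 0.951 in MGE WT at 0 h, where 8 of the 84 potassium channel genes lay over 2-fold apart. In CTX WT at 6 h 11 members lay over 2-fold apart, and in the other groups 0 to 4. Npas4 itself had log2 intensities of 6.80 to 7.82 in depolarized KO arrays and 8.59 to 12.04 in depolarized WT arrays. The 13 interneuron markers averaged 11.08 to 11.52 in MGE arrays and 9.00 to 9.67 in CTX arrays, and the 10 excitatory markers averaged 5.59 to 6.20 in MGE arrays and 10.49 to 10.86 in CTX arrays. Cultures of both kinds also held markers of other cells, with astrocyte markers averaging 9.07 to 9.48 in MGE arrays and 8.25 to 9.67 in CTX arrays, so fewer cells of a type and less RNA per cell cannot be told apart for any gene below.

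After 6 h of KCl, potassium channel genes moved in both directions in every culture. In MGE KO cultures 11 of the 55 tested rose and 5 fell, and in MGE WT cultures 11 rose and 8 fell. In CTX KO cultures 8 rose and 11 fell, and in CTX WT cultures 7 rose and 11 fell. Among all genes tested, 17.1% were called in MGE KO (4.84% higher, 12.3% lower), 25.3% in MGE WT (9.53% higher, 15.7% lower), 36.2% in CTX KO (11.3% higher, 24.9% lower) and 35.2% in CTX WT cultures (10.5% higher, 24.8% lower). The shares of potassium channel genes were 29.1%, 34.5%, 34.5% and 32.7% in the same order of cultures. Their median change was -0.03, 0.02, -0.13 and -0.13, beside -0.07, -0.05, -0.11 and -0.10 over all genes. Cyclic loess scaling between arrays moved the all-gene median by over 0.1 in the 6 h comparisons. Under it 16 members rose and 4 fell in MGE WT cultures. In CTX KO cultures 13 rose and 8 fell, and in CTX WT cultures 12 rose and 8 fell. The shares of all genes that rose or fell under this scaling were not counted. The counts depend on single arrays, with 5 to 8 called in MGE KO, 6 to 25 in MGE WT, 13 to 15 in CTX KO and 10 to 20 in CTX WT cultures when 1 array was left out. The MGE KO count was 5 without array 1 at 0 or 6 h, 6 without array 2 at 6 h and 8 without array 2 at 0 h. The MGE WT count was 6 without array 1 at 6 h and 7 without array 2 at 0 h, and the CTX WT count was 10 without array 2 at 0 h. With the replicate number as a block 23 were called in MGE KO, 26 in MGE WT, 28 in CTX KO and 21 in CTX WT cultures, and every call named above or below at 6 h was kept. Over all genes the blocked fit called more as well, at 21.3%, 30.5%, 41.1% and 40.7% in the same order. Of 37 tested members with a further probe set, a further probe set was called where the brightest was not for 4 in MGE KO, 8 in MGE WT, 9 in CTX KO and 7 in CTX WT cultures. In all 31 of the 55 were called in at least 1 culture (56.4%, against 51% of all genes).

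**Figure D1:**
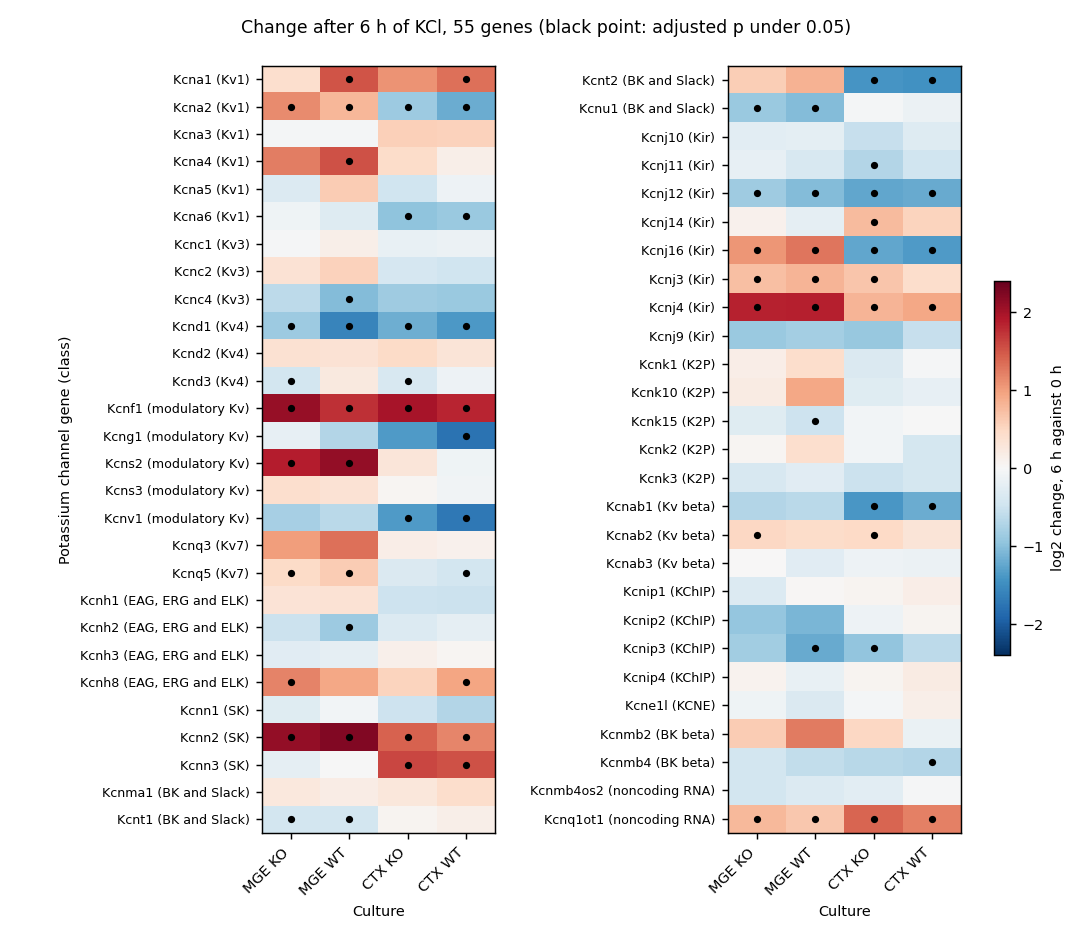
Change in log2 intensity after 6 h of KCl against 0 h for the 55 tested potassium channel genes (rows, grouped by channel class) in the 4 cultures (columns), with colour giving the log2 change and a black point an adjusted p under 0.05. Kcnf1, Kcnj4, Kcnn2 and Kcnq1ot1 were higher and Kcnd1 and Kcnj12 lower in all 4 cultures, while Kcnj16 and Kcna2 were higher in both MGE cultures and lower in both CTX cultures.

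The calls were much the same kind in both genotypes. Of the 16 members called in MGE KO cultures 13 were also called in MGE WT cultures, which is 81.2% of the KO calls and 68.4% of the 19 WT calls, all 13 in the same direction. Over all genes the shares were 82.8% of KO and 56% of WT calls. In CTX cultures 13 members were called in both genotypes, 68.4% of the 19 KO calls and 72.2% of the 18 WT calls, again all in the same direction, against 85.5% and 87.8% over all genes. KO and WT arrays are separate, so these overlaps share no control. Between cell types the overlap held opposite directions. Of the 10 members called in both MGE WT and CTX WT cultures 7 moved the same way and 3 opposite ways (62 of 1733 opposite over all genes), and of the 11 called in both MGE KO and CTX KO cultures 9 moved the same way and 2 opposite ways (43 of 1557 over all genes).

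The members that rose in all 4 cultures at 6 h numbered 4. They were the modulatory Kv subunit Kcnf1, the inward rectifier Kcnj4, the SK channel Kcnn2, which carries calcium-activated afterhyperpolarization current, and Kcnq1ot1, the noncoding antisense transcript of the imprinted Kcnq1 region. The 2 that fell in all 4 cultures were the A-type Kv4 subunit Kcnd1 and the inward rectifier Kcnj12. Over all genes tested 272 rose and 896 fell in all 4 cultures. Promoter windows from RefSeq (GRCm38.p6) were found for 64 of the 84 members, and 4 of them are shown here for members of this group, with Kcna2, which moved in opposite directions in MGE and CTX cultures. Each window gives the 250 bases before an annotated start, 5′ to 3′ on the gene's strand, and capitals mark TGACG or TCGTG on either strand. TGACG is part of the cAMP response element and TCGTG is a site of bHLH-PAS factors, the family of Npas4. The Kcnf1 window is chr12:17176889-17177138 (minus strand), that of Kcnj4 chr15:79505242-79505491 (minus strand) and that of Kcnq1ot1 chr7:143296548-143296797 (minus strand). The Kcnj12 window is chr11:61065554-61065803 (plus strand) and that of Kcna2 chr3:107101317-107101566 (plus strand). The starts of Kcnj4, Kcnj12 and Kcna2 lie inside the annotated gene.
Kcnf1: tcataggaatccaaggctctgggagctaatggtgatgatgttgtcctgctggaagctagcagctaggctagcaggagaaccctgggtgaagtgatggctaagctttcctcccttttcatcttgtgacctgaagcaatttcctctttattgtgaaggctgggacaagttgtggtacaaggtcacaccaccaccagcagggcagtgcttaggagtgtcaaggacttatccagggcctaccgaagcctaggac
Kcnj4: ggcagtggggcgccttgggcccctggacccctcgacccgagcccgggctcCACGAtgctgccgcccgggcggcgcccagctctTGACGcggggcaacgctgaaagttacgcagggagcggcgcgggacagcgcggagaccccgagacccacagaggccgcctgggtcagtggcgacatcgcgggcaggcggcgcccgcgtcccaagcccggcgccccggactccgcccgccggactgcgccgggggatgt
Kcnq1ot1: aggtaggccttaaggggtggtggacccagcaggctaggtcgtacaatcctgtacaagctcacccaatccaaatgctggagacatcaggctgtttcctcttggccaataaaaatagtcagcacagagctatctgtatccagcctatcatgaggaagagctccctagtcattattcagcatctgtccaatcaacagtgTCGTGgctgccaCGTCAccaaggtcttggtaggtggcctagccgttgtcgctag
Kcnj12: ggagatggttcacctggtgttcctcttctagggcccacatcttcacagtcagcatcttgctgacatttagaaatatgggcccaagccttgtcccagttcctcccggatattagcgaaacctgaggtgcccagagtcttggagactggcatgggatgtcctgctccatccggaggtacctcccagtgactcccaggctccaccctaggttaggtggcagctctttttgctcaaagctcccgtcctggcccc
Kcna2: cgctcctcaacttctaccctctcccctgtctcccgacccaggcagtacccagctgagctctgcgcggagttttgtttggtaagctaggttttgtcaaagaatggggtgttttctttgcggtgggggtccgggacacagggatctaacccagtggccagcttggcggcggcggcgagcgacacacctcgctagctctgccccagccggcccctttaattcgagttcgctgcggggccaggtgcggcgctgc

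With positions counted back from the start, the Kcnj4 window held TGACG from -167 on the gene's strand and TCGTG from -200 on the other strand. The Kcnq1ot1 window held TGACG from -42 on the other strand and TCGTG from -54 on the gene's strand. The Kcnf1, Kcnj12 and Kcna2 windows held neither motif. Over windows of 300 bases (250 before to 50 after the start, both strands), TGACG was present for 9 of 41 tested members with a window (22%) and 35.8% of 10016 tested genes, and TCGTG for 9 of 41 (22%) and 24.8%. The full element TGACGTCA was found for 0 of 41 members and 3.64% of tested genes, TGANTCA, the AP-1 site, for 7.32% and 5.82%, and CACGTG, the E-box, for 2.44% and 11.6%. A TGACGTCA match also counts as TGACG. Of 8 members with a window that rose in some culture and fell in none, 4 held TGACG and 4 held TCGTG, against 3 and 2 of 10 that fell and rose in none. These matches are a description of the letters in the windows.

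Kcnf1 rose about as much in all 4 cultures. In MGE cultures it had log2 intensities at 6 h of 11.05 and 10.32 in KO and 11.12 and 10.36 in WT arrays, against 8.97 and 8.21 in KO and 9.11 and 8.86 in WT arrays at 0 h. Its CTX values were 13.00 and 13.04 in KO and 13.02 and 12.82 in WT arrays at 6 h, against 10.82 and 11.25 in KO and 10.83 and 11.36 in WT arrays at 0 h. Every 6 h array lay above every 0 h array of its cell type. The change was 2.09 ± 0.33 in MGE KO (SE, n = 2 arrays per group, limma adjusted p = 0.00067), 1.76 ± 0.33 in MGE WT (0.0019), 1.98 ± 0.33 in CTX KO (0.00032) and 1.82 ± 0.33 in CTX WT cultures (0.00067). A second probe set of Kcnf1 was also called higher in all 4 cultures, by 1.41 in MGE KO, 1.0 in MGE WT, 2.53 in CTX KO and 2.25 in CTX WT. The call held when any 1 of the arrays in each comparison was left out.

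Kcnj4 rose more in MGE than in CTX cultures. It had 9.50 and 9.59 in MGE KO and 10.00 and 10.05 in MGE WT arrays at 6 h, against 7.74 and 7.66 in KO and 8.03 and 8.31 in WT arrays at 0 h. The CTX arrays gave 8.62 and 9.18 in KO and 9.28 and 9.41 in WT arrays at 6 h, against 8.06 and 8.13 in KO and 8.36 and 8.48 in WT arrays at 0 h. The 6 h and 0 h arrays did not overlap in any culture. The change was 1.84 ± 0.16 in MGE KO (adjusted p = 6.5e-06), 1.86 ± 0.16 in MGE WT (5.5e-06), 0.81 ± 0.16 in CTX KO (0.0014) and 0.92 ± 0.16 in CTX WT cultures (0.00054). The difference between the MGE and CTX responses was 1.04 ± 0.23 in KO (adjusted p = 0.014) and 0.94 ± 0.23 in WT cultures (adjusted p = 0.021). The 4 rises held without any 1 array, while the difference was not called without MGE WT array 1 or 2 at 6 h or CTX WT array 2 at 0 h (range 0.80 to 1.07 over the 8 arrays left out), nor, in KO, without MGE KO array 2 at 0 or 6 h or CTX KO array 2 at 0 h (range 0.76 to 1.32).

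Kcnn2 had 11.26 and 11.10 in MGE KO and 11.15 and 10.75 in MGE WT arrays at 6 h, against 9.07 and 9.08 in KO and 9.39 and 8.04 in WT arrays at 0 h. For CTX cultures the values were 11.30 and 10.58 in KO and 11.36 and 10.25 in WT arrays at 6 h, against 9.45 and 9.60 in KO and 9.72 and 9.53 in WT arrays at 0 h. All 6 h arrays were higher than all 0 h arrays, although the pair of arrays was wide apart in MGE WT at 0 h and in CTX WT at 6 h. The rise was 2.11 ± 0.40 in MGE KO (adjusted p = 0.0023), 2.23 ± 0.40 in MGE WT (0.0014), 1.42 ± 0.40 in CTX KO (0.012) and 1.18 ± 0.40 in CTX WT cultures (0.033). The rise was not called in CTX KO without array 1 at 0 or 6 h (range 1.06 to 1.78 over the 4 arrays left out), nor in CTX WT without either array at 0 h or array 1 at 6 h (range 0.62 to 1.74).

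Kcnq1ot1 had 10.49 and 10.41 in MGE KO and 10.84 and 10.12 in MGE WT arrays at 6 h, against 9.67 and 9.66 in KO and 9.72 and 9.94 in WT arrays at 0 h. In CTX cultures it had 10.54 and 10.85 in KO and 10.65 and 10.56 in WT arrays at 6 h, against 9.12 and 9.48 in KO and 9.26 and 9.56 in WT arrays at 0 h. The arrays of both times did not overlap in any culture. The rise was 0.78 ± 0.22 in MGE KO (adjusted p = 0.022), 0.65 ± 0.22 in MGE WT (0.039), 1.39 ± 0.22 in CTX KO (0.00016) and 1.20 ± 0.22 in CTX WT cultures (0.00058). The MGE KO call was lost without any 1 of its 4 arrays (range 0.74 to 0.82), and the MGE WT call without either array at 0 h or array 1 at 6 h (range 0.29 to 1.01). Kcnq1ot1 spans chr7:143213111-143296547 inside the Kcnq1 gene, and Kcnq1 itself, looked up after its values were seen, stayed below the array median on every array (mean log2 5.55).

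Kcnd1 had 8.50 and 8.44 in MGE KO and 8.08 and 8.35 in MGE WT arrays at 6 h, against 9.54 and 9.16 in KO and 9.55 and 10.04 in WT arrays at 0 h. Its CTX values were 7.27 and 7.51 in KO and 7.05 and 7.81 in WT arrays at 6 h, against 8.62 and 8.51 in KO and 8.75 and 8.85 in WT arrays at 0 h. Every 6 h array was below every 0 h array of its cell type. The change was -0.88 ± 0.23 in MGE KO (adjusted p = 0.017), -1.58 ± 0.23 in MGE WT (0.00032), -1.17 ± 0.23 in CTX KO (0.0011) and -1.37 ± 0.23 in CTX WT cultures (0.00035). The MGE KO call was lost without array 1 at 0 h or either array at 6 h (range -1.07 to -0.69 over the 4 arrays left out).

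Kcnj12 had 5.56 and 5.53 in MGE KO and 5.69 and 5.66 in MGE WT arrays at 6 h, against 6.63 and 6.18 in KO and 6.49 and 6.96 in WT arrays at 0 h. The CTX arrays gave 6.02 and 6.09 in KO and 6.13 and 6.20 in WT arrays at 6 h, against 7.33 and 7.26 in KO and 7.33 and 7.42 in WT arrays at 0 h. All 6 h arrays lay below the array median, so Kcnj12 was tested only through arrays at 0 and 1 h, where it is high. Among MGE arrays only WT array 2 at 0 h, at 6.96, lay above the median. The size of the fall is therefore approximate, and the p-values make no allowance for how the gene came to be tested. The change was -0.86 ± 0.22 in MGE KO (adjusted p = 0.015), -1.05 ± 0.22 in MGE WT (0.0038), -1.24 ± 0.22 in CTX KO (0.00052) and -1.21 ± 0.22 in CTX WT cultures (0.00069). The MGE calls were lost without MGE WT array 2 at 0 h (range -1.28 to -0.82) and, in KO, without array 1 at 0 h or either array at 6 h (range -1.09 to -0.64).

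**Figure D2:**
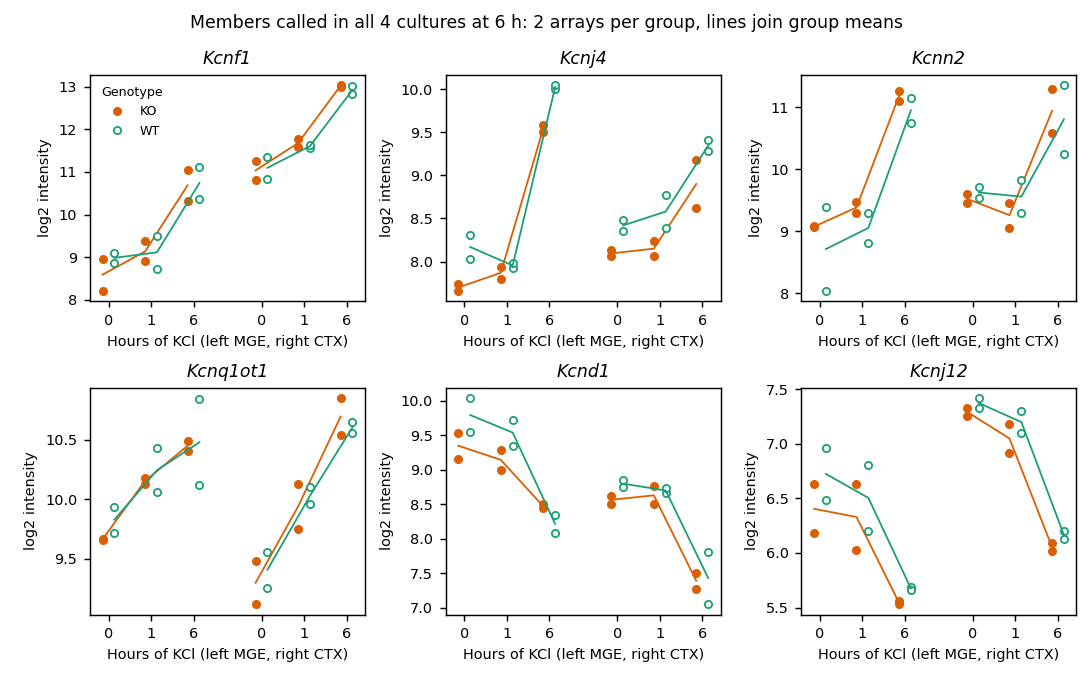
Log2 intensity of the 6 potassium channel genes called at 6 h in all 4 cultures, against hours of KCl, with MGE cultures on the left and CTX cultures on the right of each panel, KO as filled and WT as open points (1 point per array) and lines joining group means. Kcnf1, Kcnj4, Kcnn2 and Kcnq1ot1 lay above their 0 h values after 6 h in every culture, and Kcnd1 and Kcnj12 lay below.

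Other members responded differently in the cell types. The difference between the MGE and CTX 6 h responses was called for 6 members in KO cultures (5 higher in MGE, 1 lower, against 7.34% of all genes called) and for 7 in WT cultures (5 higher, 2 lower, against 10.9%). The 6 called in KO cultures were Kcnj16, Kcna2, Kcnt2, Kcnj4, Kcnq5 and Kcnn3, and in WT cultures the same 6 were called with Kcnu1. With the replicate number as a block 14 members were called in WT cultures (against 16.3% of all genes) and 8 in KO cultures (against 11.3%), Kcnu1 among them in both. Under cyclic loess the KO calls numbered 3 higher and 2 lower, with the all-gene share not counted. Without MGE WT array 1 at 0 h 14 were called, without CTX WT array 1 at 6 h 13, and without CTX WT array 2 at 0 h 4. In KO cultures 3 were called without MGE KO array 2 at 6 h and 3 without CTX KO array 2 at 0 h.

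Kcnj16, an inward rectifier subunit that pairs with Kcnj10 in glia and kidney, moved in opposite directions. It had 7.14 and 7.14 in MGE KO and 7.06 and 6.48 in MGE WT arrays at 6 h, against 6.02 and 6.16 in KO and 5.73 and 5.23 in WT arrays at 0 h. For CTX cultures the values were 7.44 and 7.08 in KO and 7.34 and 7.57 in WT arrays at 6 h, against 8.70 and 8.29 in KO and 8.70 and 8.90 in WT arrays at 0 h. The cell types thus lay far apart at 0 h and close together at 6 h, with the MGE arrays at 0 h below the array median. The change was 1.05 ± 0.27 in MGE KO (adjusted p = 0.016), 1.29 ± 0.27 in MGE WT (0.0038), -1.24 ± 0.27 in CTX KO (0.0024) and -1.35 ± 0.27 in CTX WT cultures (0.0015). The difference between cell types was 2.29 ± 0.39 in KO (adjusted p = 0.0029) and 2.64 ± 0.39 in WT cultures (0.0011), and both held without any 1 array. The MGE rise was lost in KO without any 1 of its 4 arrays (range 0.98 to 1.12) and in WT without array 1 at 6 h or array 2 at 0 h (range 1.0 to 1.58). A dimmer probe set of Kcnj16 (mean log2 5.13) was called in no culture, with changes of 0.26, 0.25, -0.11 and -0.51.

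Kcna2, a Kv1 subunit of axonal low-threshold channels, showed the same contrast at levels well above the array median. It had 11.20 and 11.20 in MGE KO and 10.94 and 10.80 in MGE WT arrays at 6 h, against 10.14 and 9.96 in KO and 10.16 and 10.00 in WT arrays at 0 h. In CTX cultures it had 8.46 and 7.89 in KO and 8.33 and 7.51 in WT arrays at 6 h, against 9.22 and 8.87 in KO and 9.27 and 8.97 in WT arrays at 0 h. The difference between the cell types thus widened with depolarization. The change was 1.14 ± 0.23 in MGE KO (adjusted p = 0.0033), 0.79 ± 0.23 in MGE WT (0.023), -0.87 ± 0.23 in CTX KO (0.0084) and -1.20 ± 0.23 in CTX WT cultures (0.00097). The difference was 2.01 ± 0.33 in KO (adjusted p = 0.0022) and 1.99 ± 0.33 in WT cultures (0.0022), and both held without any 1 array. A second probe set of Kcna2 (mean log2 9.39) was called higher by 0.82 in MGE KO, was 0.28 higher and not called in MGE WT, and was called lower by 0.71 in CTX KO and 0.82 in CTX WT cultures. The rise in MGE WT was lost without either array at 6 h or array 2 at 0 h (range 0.71 to 0.87), and the fall in CTX KO without array 1 at 0 h or array 2 at 6 h (range -1.15 to -0.59).

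Kcnq5, a Kv7 subunit of the M-type current, had 11.32 and 11.36 in MGE KO and 11.23 and 11.21 in MGE WT arrays at 6 h, against 10.72 and 11.05 in KO and 10.68 and 10.57 in WT arrays at 0 h. Its CTX values were 12.08 and 12.10 in KO and 12.04 and 11.99 in WT arrays at 6 h, against 12.45 and 12.41 in KO and 12.45 and 12.45 in WT arrays at 0 h. Arrays of both times did not overlap in any culture, and all changes were under 2-fold. The change was 0.46 ± 0.14 in MGE KO (adjusted p = 0.04), 0.60 ± 0.14 in MGE WT (0.0084), -0.34 ± 0.14 in CTX KO (0.078, or 0.044 with the replicate block) and -0.44 ± 0.14 in CTX WT cultures (0.028). The difference was 0.80 ± 0.20 in KO (adjusted p = 0.026) and 1.03 ± 0.20 in WT cultures (0.0062). The WT difference held without any 1 array, and the KO difference only without MGE KO array 2 at 0 h, being lost without each of the other 7 (range 0.64 to 0.97). The MGE KO rise was lost without array 1 at 0 h or either array at 6 h (range 0.29 to 0.63), the MGE WT rise without array 1 at 6 h or array 2 at 0 h (range 0.54 to 0.65), and the CTX WT fall without any 1 of its 4 arrays (range -0.46 to -0.41).

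Kcnt2, a sodium-activated channel of the Slack family, fell in CTX cultures, to 8.13 and 8.32 in KO and 7.95 and 8.84 in WT arrays at 6 h, against 9.59 and 9.70 in KO and 9.63 and 10.05 in WT arrays at 0 h. In MGE cultures it had 8.12 and 8.07 in KO and 7.46 and 7.26 in WT arrays at 6 h, against 7.41 and 7.61 in KO and 7.36 and 5.66 in WT arrays at 0 h. Only the MGE WT arrays overlapped between times. The change was -1.42 ± 0.39 in CTX KO (adjusted p = 0.011) and -1.45 ± 0.39 in CTX WT cultures (0.01), and 0.59 ± 0.39 in MGE KO (0.38) and 0.84 ± 0.39 in MGE WT cultures (0.13), which were not called. The difference was 2.01 ± 0.56 in KO cultures (adjusted p = 0.041), lost without any 1 array (range 1.91 to 2.11), and 2.29 ± 0.56 in WT cultures (0.018), lost without MGE WT array 1 at 6 h or CTX WT array 2 at 0 h (range 1.44 to 3.14). The CTX falls were lost without array 1 at 6 h or array 2 at 0 h, in KO (range -1.52 to -1.33) and in WT (range -1.89 to -1.0).

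Kcnn3, an SK channel, rose in CTX cultures, to 8.47 and 8.78 in KO and 8.34 and 8.59 in WT arrays at 6 h, against 7.05 and 7.01 in KO and 6.88 and 7.02 in WT arrays at 0 h. In MGE cultures it had 7.11 and 6.94 in KO and 7.22 and 7.28 in WT arrays at 6 h, against 7.26 and 7.22 in KO and 7.11 and 7.42 in WT arrays at 0 h. The CTX arrays were thus near the MGE level until depolarization. The change was 1.60 ± 0.14 in CTX KO (adjusted p = 1.1e-06) and 1.52 ± 0.14 in CTX WT cultures (2.1e-06), beside -0.21 ± 0.14 in MGE KO (0.37) and -0.01 ± 0.14 in MGE WT cultures (0.95). The difference, MGE against CTX, was -1.81 ± 0.20 in KO (adjusted p = 0.00018) and -1.53 ± 0.20 in WT cultures (0.00041). These CTX rises and both differences held without any 1 array.

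Kcnu1, a member of the BK family known from sperm, fell in MGE cultures to 9.05 and 8.85 in KO and 9.22 and 8.87 in WT arrays at 6 h, against 9.94 and 9.75 in KO and 10.06 and 10.14 in WT arrays at 0 h. The CTX arrays gave 9.08 and 9.45 in KO and 9.06 and 9.48 in WT arrays at 6 h, against 9.25 and 9.36 in KO and 9.49 and 9.33 in WT arrays at 0 h. The times overlapped in CTX and not in MGE cultures. The change was -0.90 ± 0.18 in MGE KO (adjusted p = 0.0028) and -1.05 ± 0.18 in MGE WT cultures (0.00084), both kept without any 1 array, and the difference between cell types in WT cultures was -0.91 ± 0.25 (adjusted p = 0.031). That difference was lost without MGE WT array 2 at 0 or 6 h, CTX WT array 1 at 0 h, or CTX WT array 2 at 0 or 6 h (range -1.12 to -0.70). In KO cultures the difference was of similar size, at -0.86 (adjusted p = 0.052, or 0.015 with the replicate block).

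**Figure D3:**
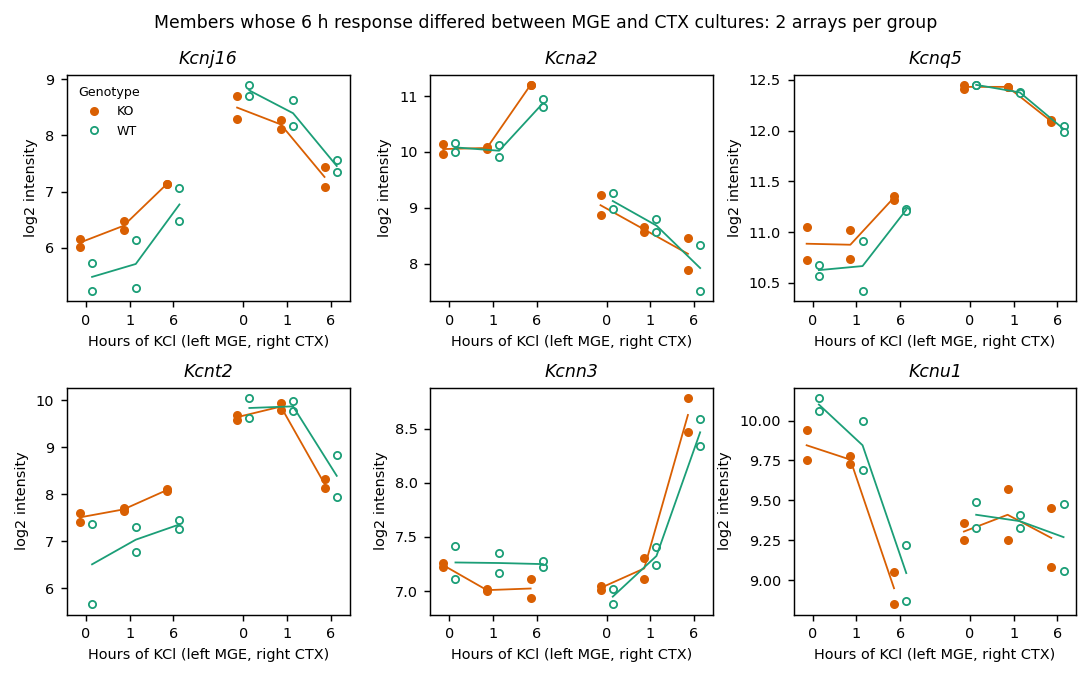
Log2 intensity of 6 potassium channel genes whose 6 h response differed between cell types, against hours of KCl, with MGE cultures on the left and CTX cultures on the right of each panel, KO as filled and WT as open points (1 point per array) and lines joining group means. Kcnj16, Kcna2 and Kcnq5 turned up in MGE and down in CTX cultures, Kcnt2 fell in CTX, Kcnn3 rose in CTX and Kcnu1 fell in MGE cultures.

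In the CTX cultures some markers of other cells moved over the same 6 h. Of 8 tested astrocyte markers 1 rose, the transcription factor Sox9 (1.98 ± 0.45 in KO and 2.42 ± 0.45 in WT), and the 9 markers averaged 8.79 to 9.67 over the CTX arrays at 6 h and 8.25 to 9.18 at 0 h. Of 7 tested microglia markers Cd68 rose (1.44 ± 0.42 in KO and 1.76 ± 0.42 in WT), with list averages of 6.47 to 6.92 at 6 h and 6.30 to 6.70 at 0 h. Sox2, a progenitor and glial marker, rose by 1.75 ± 0.45 in KO and 1.59 ± 0.45 in WT, with 2 of 8 progenitor markers called in KO and 1 of 8 in WT. Of 9 tested excitatory markers 1 rose and 2 fell in each genotype, and the list averaged 10.49 to 10.86 at 6 h and 10.62 to 10.84 at 0 h. Of 13 interneuron markers 3 rose in CTX KO and 2 in CTX WT cultures, and 0 were called lower. Among the called were Sst (1.04 ± 0.29 in KO and 1.34 ± 0.29 in WT) and Npy (0.66 ± 0.22 in KO and 0.73 ± 0.22 in WT). Others lay lower without a call, such as Lhx6, at 9.42 and 8.67 in CTX WT arrays at 6 h against 10 and 9.54 at 0 h. The median change of the 13 was 0.3 in CTX KO and 0.4 in CTX WT cultures. Their list averages were 9.23 to 9.67 at 6 h and 9.00 to 9.37 at 0 h. Of 5 tested oligodendrocyte markers Mbp fell in CTX KO (-1.10 ± 0.34) and Cnp in MGE WT cultures (-0.53 ± 0.18). The median change of the 5 was 0.2 in CTX KO and 0.12 in MGE WT cultures, where 0 were called higher. Olig2 lay higher without a call in MGE WT arrays, at 8.51 and 9.31 at 6 h against 7.52 and 8.73 at 0 h. Of the interneuron markers 1 rose in MGE WT cultures. In MGE cultures 0 astrocyte, microglia, vascular or progenitor markers were called at 6 h. The part of these markers in the CTX changes was not tested.

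Among the voltage-gated pore subunits, the Kv1 genes differed between cultures. Kcna1, a Kv1 subunit of axons, had 9.73 and 9.66 in MGE KO and 10.74 and 10.80 in MGE WT arrays at 6 h, against 9.11 and 9.47 in KO and 9.34 and 9.20 in WT arrays at 0 h. It rose by 1.5 ± 0.45 in MGE WT (adjusted p = 0.025) and 1.33 ± 0.45 in CTX WT cultures (0.031), beside 0.40 ± 0.45 in MGE KO (0.65) and 1.08 ± 0.45 in CTX KO cultures (0.074, or 0.0073 with the replicate block). The KO and WT responses were not shown to differ, at -1.09 ± 0.63 in MGE cultures (adjusted p = 1). The MGE WT call was lost without either array at 6 h or array 2 at 0 h (range 1.42 to 1.57), and the CTX WT call without array 1 at 6 h or array 2 at 0 h (range 0.42 to 2.25). Kcna4, an A-type Kv1 subunit, rose by 1.53 ± 0.41 in MGE WT cultures (adjusted p = 0.015), beside 1.23 ± 0.41 in MGE KO (0.054, or 0.012 with the replicate block), and this call was lost without array 1 at 6 h or array 2 at 0 h (range 1.23 to 1.83). Kcna6 fell in CTX cultures, by 0.97 in KO and 0.90 in WT (SE 0.21 each), and both calls held without any 1 array. Kcna5 was called in no culture, and with the replicate block it was called in MGE WT (0.60, adjusted p = 0.014) and CTX KO cultures (-0.47, 0.031).

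Among the Kv3 subunits, which allow fast spiking, Kcnc4 fell by 1.04 ± 0.35 in MGE WT cultures (adjusted p = 0.041), a call lost without any 1 of the 4 arrays (range -1.26 to -0.83). Its changes elsewhere were -0.63 in MGE KO (adjusted p = 0.28), -0.86 in CTX KO (0.069) and -0.89 in CTX WT cultures (0.062), and with the replicate block it was called in all 4. Kcnc1 and Kcnc2 were called in no culture by their brightest probe sets, but a further Kcnc1 probe set (mean log2 9.19) was called higher in MGE WT (0.83) and lower in CTX KO cultures (-0.80). Of the Kv4 subunits, which carry somatodendritic A-type current, Kcnd2 was called in no culture by its brightest probe set, was called higher by a further one in CTX WT cultures (0.77), and was called in CTX KO cultures with the replicate block (0.45, adjusted p = 0.027). Kcnd3 had 12.39 and 12.32 in MGE KO arrays at 6 h, against 12.85 and 12.76 at 0 h, and 12.31 and 12.21 in CTX KO arrays at 6 h, against 12.69 and 12.60 at 0 h. These changes of -0.45 ± 0.12 (adjusted p = 0.02) and -0.38 ± 0.12 (0.024) were called in KO cultures, while the WT changes were 0.24 ± 0.12 in MGE (0.16) and -0.13 ± 0.12 in CTX cultures (0.46). The MGE KO call was lost without any 1 array (range -0.50 to -0.41), and the CTX KO call without either array at 0 h or array 2 at 6 h (range -0.43 to -0.33). A dimmer probe set of Kcnd3 (mean log2 5.55) was called higher in MGE WT cultures (0.74, limma adjusted p = 0.022), where the brightest was not called.

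Of the 5 tested modulatory Kv subunits, which only act with other Kv subunits, Kcnf1 rose in all 4 cultures and 3 others were called in some. The MGE and CTX responses of those 3 were not shown to differ (adjusted p of at least 0.098 each), though with the replicate block the difference was called for Kcnv1 in WT cultures (adjusted p = 0.041). Kcns2 had 9.60 and 9.37 in MGE KO and 9.64 and 9.45 in MGE WT arrays at 6 h, against 7.69 and 7.51 in KO and 7.65 and 7.25 in WT arrays at 0 h. In CTX cultures its arrays at 6 h were 9.86 and 8.28 in KO and 9.88 and 7.35 in WT, against 8.68 and 8.89 in KO and 8.61 and 8.80 in WT arrays at 0 h, so that array 1 lay above and array 2 below both 0 h arrays in each genotype. It rose by 1.89 ± 0.58 in MGE KO (adjusted p = 0.039) and 2.10 ± 0.58 in MGE WT cultures (0.018). The KO call was lost without any 1 array (range 1.77 to 2.00) and the WT call without either array at 6 h or array 2 at 0 h (range 1.90 to 2.30). Kcnv1 fell in CTX cultures by 1.35 ± 0.32 in KO (adjusted p = 0.004) and 1.71 ± 0.32 in WT (0.00076), and both calls held without any 1 array. In MGE cultures it changed by -0.80 ± 0.32 in KO (adjusted p = 0.11, or 0.025 with the replicate block) and -0.64 ± 0.32 in WT (0.15). Kcng1 fell by 1.77 ± 0.57 in CTX WT cultures (adjusted p = 0.024), which was lost without any 1 array (range -1.96 to -1.59), beside -1.35 ± 0.57 in CTX KO (0.079, or 0.0029 with the replicate block). Kcns3 was called in no culture.

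Of the Kv7 subunits Kcnq3, a partner of Kcnq5 in the M-type current, changed by 1.01 ± 0.51 in MGE KO (adjusted p = 0.21) and 1.33 ± 0.51 in MGE WT cultures (0.067). It was called in both with the replicate block (adjusted p = 0.00052 in KO and 7e-05 in WT), and a dimmer probe set (mean log2 5.92) was called higher in MGE WT (1.48), CTX KO (1.77) and CTX WT cultures (1.71). In the EAG, ERG and ELK class, Kcnh8 changed by 1.19 ± 0.34 in MGE KO (adjusted p = 0.026) and 0.94 ± 0.34 in CTX WT cultures (0.045). All its MGE arrays and its CTX WT arrays at 0 h lay below the array median, and it was tested only because 3 CTX arrays at 6 h lay above it, so these calls support no rise. These calls were lost without either MGE KO array at 0 h or array 1 at 6 h (range 0.94 to 1.45), and without either CTX WT array at 0 h or array 1 at 6 h (range 0.29 to 1.58). Kcnh2, the ERG channel, fell by 0.88 ± 0.27 in MGE WT cultures (adjusted p = 0.026), lost without either array at 6 h or array 2 at 0 h (range -1.10 to -0.67). In MGE KO cultures, where it was not called, its means were 9.14 at 0 h and 8.62 at 6 h. Among sodium- and calcium-activated channels, the brightest probe set of Kcnma1, the BK pore, was called in no culture. Its other probe sets were called higher, among them 1 of mean log2 8.06 by 1.59 in MGE KO, 1.60 in MGE WT and 0.96 in CTX KO cultures, and 1 of mean log2 9.08 by 0.58 in both CTX cultures, so the probe sets of Kcnma1 disagree. Kcnt1, a Slack channel, fell by 0.44 ± 0.14 in MGE KO (0.045) and 0.45 ± 0.14 in MGE WT cultures (0.031). The Kcnt1 calls were lost without any 1 MGE KO array (range -0.54 to -0.34), and without either MGE WT array at 6 h or array 2 at 0 h (range -0.52 to -0.38).

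Of 8 tested inward rectifiers 3 rose and 1 fell in MGE KO, 3 rose and 1 fell in MGE WT, 3 rose and 3 fell in CTX KO, and 1 rose and 2 fell in CTX WT cultures. Kcnj3, a subunit of G protein-gated channels, rose by 0.72 ± 0.19 in MGE KO (adjusted p = 0.016), 0.82 ± 0.19 in MGE WT (0.0062) and 0.67 ± 0.19 in CTX KO cultures (0.012). In CTX WT cultures, where it was not called, its means were 11 at 0 h and 11.43 at 6 h. A dimmer probe set of Kcnj3 (mean log2 5.86) was called in the opposite direction in MGE WT (-0.81) and CTX KO cultures (-1.0), while a probe set of mean log2 6.92 was called higher in both (1.09 and 1.98). A further probe set of mean log2 9.54 was called higher by 2.43 in MGE WT cultures. Of the Kcnj3 probe sets given here, the dimmest alone disagreed in direction. Its calls were lost without any 1 MGE KO array (each 0.72), without MGE WT array 1 at 6 h or array 2 at 0 h (range 0.72 to 0.92), and without CTX KO array 1 at 6 h or array 2 at 0 h (range 0.59 to 0.75). In CTX KO cultures Kcnj14 rose by 0.76 ± 0.24 (adjusted p = 0.024) and Kcnj11, the pore of ATP-sensitive channels, fell by 0.70 ± 0.21 (0.017). Both were lost without either array at 0 h or array 2 at 6 h (ranges 0.45 to 1.07 and -0.91 to -0.49). In CTX WT cultures neither was called, with means at 0 and 6 h of 6.81 and 7.34 for Kcnj14 and 8.7 and 8.21 for Kcnj11. Of 5 tested tandem-pore genes Kcnk15 alone was called by its brightest probe set, with a fall of 0.49 ± 0.16 in MGE WT cultures (0.032), lost without either array at 6 h or array 2 at 0 h (range -0.64 to -0.34). In MGE KO cultures, where Kcnk15 was not called, its means were 11.47 at 0 h and 11.17 at 6 h. A further probe set of Kcnk10 (mean log2 8.06) was called higher in all 4 cultures, by 0.75 in MGE KO, 1.10 in MGE WT, 2.06 in CTX KO and 1.80 in CTX WT, where the brightest changed by 0.19, 0.93, -0.29 and -0.20 and was not called. A further probe set of Kcnk1 (mean log2 8.49) was called higher by 0.83 in CTX KO and 1.26 in CTX WT cultures, against -0.34 and -0.03 for the brightest. The response of these 2 genes therefore depended on the probe set.

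Of the auxiliary subunits Kcnab1, a Kv beta subunit that speeds inactivation of Kv1 channels, fell in CTX cultures. It had 8.47 and 8.93 in KO and 8.63 and 9.63 in WT arrays at 6 h, against 10.05 and 10.15 in KO and 10.06 and 10.61 in WT arrays at 0 h. The change was -1.40 ± 0.29 in CTX KO (adjusted p = 0.0017) and -1.20 ± 0.29 in CTX WT cultures (0.005), beside -0.70 ± 0.29 in MGE KO (0.12) and -0.65 ± 0.29 in MGE WT cultures (0.11). The CTX WT call was lost without array 1 at 6 h or array 2 at 0 h (range -1.70 to -0.71). Kcnab2, another Kv beta subunit, rose by 0.50 ± 0.15 in MGE KO (0.038) and 0.47 ± 0.15 in CTX KO cultures (0.028), calls lost without any 1 MGE KO array (range 0.38 to 0.62) and without CTX KO array 2 at 0 h or either at 6 h (range 0.33 to 0.61). It was not called in WT cultures, with 0.44 in MGE WT (adjusted p = 0.051) and CTX WT means of 8.98 at 0 h and 9.29 at 6 h. Kcnip3, a calcium-binding KChIP subunit that also acts as a transcriptional repressor, fell by 1.21 ± 0.30 in MGE WT (adjusted p = 0.011) and 0.95 ± 0.30 in CTX KO cultures (0.024). Those calls were lost without MGE WT array 1 at 6 h or array 2 at 0 h (range -1.61 to -0.81), and without CTX KO array 1 at 0 h or either at 6 h (range -1.22 to -0.68). In the other cultures Kcnip3 was not called, with means at 0 and 6 h of 7.24 and 6.41 in MGE KO and 8.01 and 7.39 in CTX WT. Kcnmb4, a neuronal BK beta subunit, fell by 0.70 ± 0.25 in CTX WT cultures (0.04), lost without either array at 0 h or array 1 at 6 h (range -0.85 to -0.55). Its change was -0.66 in CTX KO (adjusted p = 0.052, or 0.012 with the replicate block) and -0.59 in MGE WT cultures (0.096, or 0.03). In MGE KO cultures its means were 9.6 at 0 h and 9.17 at 6 h, not called.

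Genes outside the naming rule that work with these channels were looked at in the same fit. Of 15 tested Kv accessory proteins, 0 rose and 1 fell in MGE KO, 1 rose and 1 fell in MGE WT, 5 fell in CTX KO and 4 fell in CTX WT cultures. In KO against WT 1 of the 15 was called, Adam11, a membrane protein associated with Kv1 complexes, named after its values were seen. It had 8.18 and 7.84 in MGE KO against 9.77 and 9.79 in MGE WT arrays at 6 h (-1.77 ± 0.23, adjusted p = 0.0065, 1 of 4 genes called in that comparison), and -0.62 ± 0.10 averaged over times and cell types (0.038). Amigo1, a partner of Kv2 channels, fell by 1.22 ± 0.13 in CTX KO (adjusted p = 5.8e-06) and 0.81 ± 0.13 in CTX WT cultures (0.0002). Cntn2, an adhesion protein that clusters Kv1 channels on axons, fell in all 4 cultures, by 1.15 in MGE KO, 1.46 in MGE WT, 1.03 in CTX KO and 0.97 in CTX WT (SE 0.33 each). Of 7 tested sodium channel genes Scn1a rose by 1.08 ± 0.23 in MGE WT (0.0039), and the beta subunit Scn2b fell by 1.13 ± 0.15 in CTX KO (4.3e-05) and 1.37 ± 0.15 in CTX WT cultures (1e-05). Of 3 tested genes for pacemaker channels and their partner Pex5l, Pex5l rose in MGE WT (0.96 ± 0.31, adjusted p = 0.035), and of 6 tested potassium pumps and cotransporters Atp1b3 rose in CTX KO cultures (0.33 ± 0.10, 0.016).

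At 1 h, of the 55 tested members, 0 were called in any culture by limma, and 1, 0, 1 and 2 had an unadjusted p under 0.05 in MGE KO, MGE WT, CTX KO and CTX WT cultures. Among all genes 0.444%, 0.574%, 1.1% and 0.864% were called, so a count of 0 among 55 is at the background share. Changes ran from -0.34 to 0.55 in MGE KO, -0.47 to 0.60 in MGE WT, -0.61 to 0.64 in CTX KO and -0.46 to 0.62 in CTX WT cultures. Kcnq1ot1 was among the members with an unadjusted p under 0.05 in 3 cultures, with 0.49 ± 0.22 in MGE KO (adjusted p = 1), 0.64 ± 0.22 in CTX KO (0.36) and 0.62 ± 0.22 in CTX WT (0.43), and 0.42 ± 0.22 in MGE WT (0.81). Its arrays at 1 h lay above those at 0 h in all 4 cultures. In the MGE WT cultures 3 members were called at 1 h without array 1 at 0 h. The MGE and CTX responses at 1 h in WT cultures differed for 0 members, with 0.0162% of all genes called and 1 member at an unadjusted p under 0.05.

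The KO and WT comparison addresses which responses to depolarization require Npas4. Among potassium channel genes 0 of 55 were called by limma in KO against WT at any time in either cell type. Of all genes 0%, 0.0242% and 0.0323% were called in MGE cultures at 0, 1 and 6 h, and 0%, 0.00808% and 0.0485% in CTX cultures. At the looser threshold of an unadjusted p under 0.05, 6, 2 and 7 members passed in MGE cultures and 0, 1 and 2 in CTX cultures. The difference between KO and WT in the response to KCl was called for 0 members at 1 or 6 h in either cell type. At most 0.00808% of all genes were called there, and 0 to 3 members had an unadjusted p under 0.05. The all-gene share at an unadjusted p was not counted, so those member counts have no background beside them. The median 95% interval of a KO against WT difference reached 0.57 on either side of the estimate and the widest 1.70, so a difference of 2-fold could be missed for some members. At 6 h the interval lay within 1 log2 unit of 0 for 37 members in MGE and 42 in CTX cultures. Without MGE WT array 1 at 0 h, which leaves its group 1 array, some members were called in MGE KO against WT at 0 h and in the difference of the 6 h response. Without CTX WT array 1 at 6 h some were called in CTX KO against WT at 6 h. The share of all genes called in those fits was not counted.

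The KO against WT differences with the smallest p or largest size at 6 h in MGE cultures were those of Kcnd3, Kcna5 and Kcna1. Kcnd3 had 12.39 and 12.32 in MGE KO arrays at 6 h, against 13.05 and 12.87 in MGE WT arrays, a difference of -0.61 ± 0.12 (adjusted p = 0.14). Kcna5, a Kv1 subunit, had 7.32 and 7.22 in MGE KO and 7.99 and 8.24 in MGE WT arrays at 6 h (-0.85 ± 0.22, adjusted p = 0.53). Kcna1 differed by -1.07 ± 0.45 in the same arrays (adjusted p = 1). The KO arrays of these 3 genes all lay below the WT arrays at 6 h in MGE cultures, and in CTX cultures the differences were -0.28 ± 0.12, 0.13 ± 0.22 and -0.53 ± 0.45 (adjusted p = 1 each). With the replicate number as a block Kcnd3 was called in MGE cultures. In the KO against WT change of the 6 h response Kcnd3 had -0.69 ± 0.17 (adjusted p = 1) in MGE cultures.

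Kcnj4 was lower in KO in every pair of groups. In MGE cultures it had 7.74 and 7.66 in KO against 8.03 and 8.31 in WT arrays at 0 h, 7.94 and 7.80 against 7.93 and 7.98 at 1 h, and 9.50 and 9.59 against 10.00 and 10.05 at 6 h. For CTX cultures the values were 8.06 and 8.13 in KO against 8.36 and 8.48 in WT arrays at 0 h, 8.06 and 8.24 against 8.39 and 8.77 at 1 h, and 8.62 and 9.18 against 9.28 and 9.41 at 6 h. The KO mean was lower in 6 of 6 pairs of groups and the arrays did not overlap in 5. Of the 55 tested members 13 were lower in KO in all 6 pairs (23.6%, against 17.3% of all genes), and Kcnc1 had the same 6 and 5. Kcnj4 and Kcnc1 were the 2 members lower in all 6 pairs with arrays apart in 5 or 6 (3.64%, against 0.808% of all genes). Averaged over times and cell types the difference was -0.37 ± 0.07 (95% interval -0.52 to -0.23, adjusted p = 0.056, not called), in a comparison that called 0 members and 0.0727% of all genes. Without a block 13 members had an unadjusted p under 0.05, a threshold at which the all-gene share was not counted. With the replicate block Kcnj4 was called (adjusted p = 0.014). The averaged comparison called some members without MGE WT array 1 at 0 h or without CTX KO array 2 at 6 h, each leaving a group with 1 array. The share of all genes called in those fits was not counted. All 55 averaged intervals lay within 1 log2 unit of 0. The 6 h rise of Kcnj4 did not differ detectably with genotype (KO against WT -0.01 ± 0.23 in MGE cultures).

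**Figure D4:**
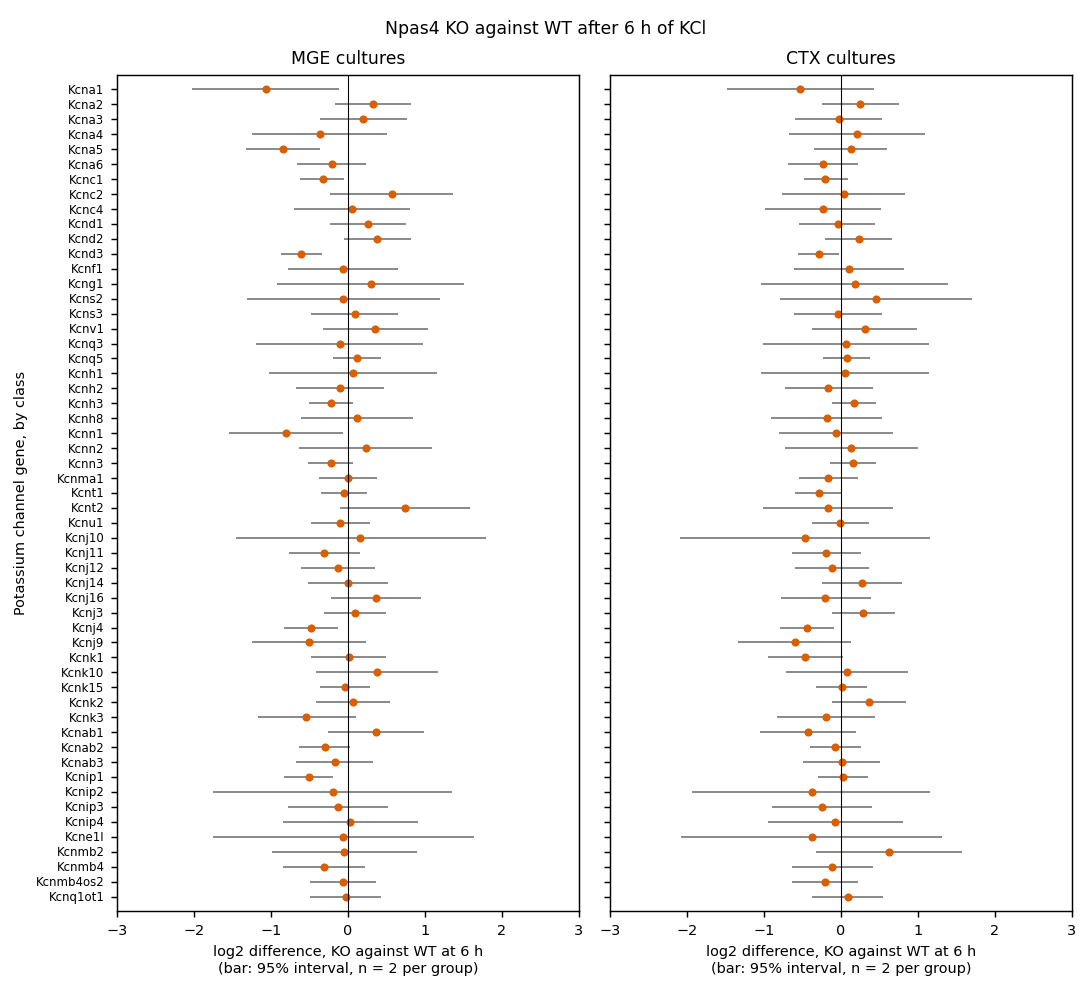
Difference in log2 intensity between KO and WT after 6 h of KCl for the 55 tested potassium channel genes, in MGE cultures (left) and CTX cultures (right), with points for the estimate and bars for its 95% interval (2 arrays per group). None was called. In MGE cultures Kcna1 (-1.07) had the lowest estimate, beside -0.85 for Kcna5 and -0.61 for Kcnd3.

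In silenced WT cultures 38 of 55 potassium channel genes differed between cell types, 16 higher and 22 lower in MGE than in CTX cultures, against 64.2% of all genes called. Over all genes 34.7% were higher and 29.5% lower in MGE, and the all-gene median of 0.11 became 0 under cyclic loess. The median of the 55 was -0.26. Among those higher in MGE, Kcnc1, a Kv3 subunit of fast-spiking interneurons, had 11.46 and 11.61 in MGE WT arrays, against 9.88 and 9.81 in CTX WT arrays, a difference of 1.70 ± 0.13 (adjusted p = 2.9e-07). Kcna5 had 7.75 and 7.29 against 4.65 and 5.27 (2.56 ± 0.22, adjusted p = 7.3e-07), with the CTX arrays below the array median. It was tested only through the MGE arrays, where it is high, so this size is approximate and its p-value makes no allowance for that. Kcnip1, a KChIP subunit, had 11.17 and 11.20 in MGE WT against 9.83 and 9.43 in CTX WT arrays (1.56 ± 0.15, adjusted p = 1.7e-06). These 3 genes did not overlap between cell types in any of the 24 arrays, and the share of all genes so separated was not counted.

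Kcne1l, of the KCNE family of small accessory subunits, had 9.51 and 11.14 in MGE WT arrays, against 6.81 and 5.55 in CTX WT arrays (4.15 ± 0.79, adjusted p = 0.00047). Both CTX WT arrays of Kcne1l at 0 h lay below the array median, so this size is approximate. Kcnj10, an inward rectifier of astrocytes, had 8.63 and 9.91 in MGE WT against 7.94 and 6.70 in CTX WT arrays (1.95 ± 0.76, adjusted p = 0.036). Both genes spread over more than 1 log2 unit within each pair. The Kcnj10 call was lost without MGE WT array 2 or CTX WT array 2 (range 1.31 to 2.59). Astrocyte markers averaged 9.07 and 9.47 in the MGE WT arrays and 9.18 and 8.79 in the CTX WT arrays, 1 of 8 tested being higher in MGE, and their part in the Kcnj10 difference was not tested.

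Among those lower in MGE were both tested M-current subunits. Kcnq3 had 8.89 and 7.62 in MGE WT arrays, against 10.92 and 11.43 in CTX WT arrays (-2.92 ± 0.51, adjusted p = 0.00022), and Kcnq5 had 10.68 and 10.57 against 12.45 and 12.45 (-1.83 ± 0.14, adjusted p = 3e-07). Kcnk10, a mechanically and lipid-gated tandem-pore channel, had 9.54 and 7.93 in MGE WT against 12.22 and 12.58 in CTX WT arrays (-3.66 ± 0.37, adjusted p = 2.6e-06). The MGE WT arrays were again far apart for Kcnk10, while both CTX arrays lay well above them. Kcnv1 (-3.52 ± 0.32), Kcnt2 (-3.33 ± 0.39), Kcnj16 (-3.32 ± 0.27), Kcng1 (-2.70 ± 0.57), Kcnab1 (-2.28 ± 0.29) and Kcnf1 (-2.11 ± 0.33) were also lower in MGE. For Kcnj16 and Kcng1 both MGE WT arrays, and for Kcnv1 and Kcnt2 1 of them, lay below the array median, so those sizes are approximate. Of the genes named so far as lower in MGE, Kcnv1, Kcnt2, Kcnj16 and Kcnab1 fell with depolarization in CTX KO and CTX WT cultures. Kcng1 and Kcnq5 were called lower in CTX WT alone. Kcnq3 and Kcnk10 were called in no culture by their brightest probe sets, and Kcnf1 rose in both cell types. Over all 12378 genes 3087 fell in CTX KO and 3065 in CTX WT cultures. The CTX WT falls use the same 0 h arrays as the difference between cell types, so they are not independent of it. For Kcna6 and Kcnd2 another probe set was called in the opposite direction (-0.67 against 0.94 for Kcna6, and 1.86 against -0.99 for Kcnd2), so the cell type with more of either transcript was not settled. Kcnh1, an EAG channel, was lower in MGE (-1.77 ± 0.51), a call lost without MGE WT array 2 or CTX WT array 2 (range -2.16 to -1.38).

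**Figure D5:**
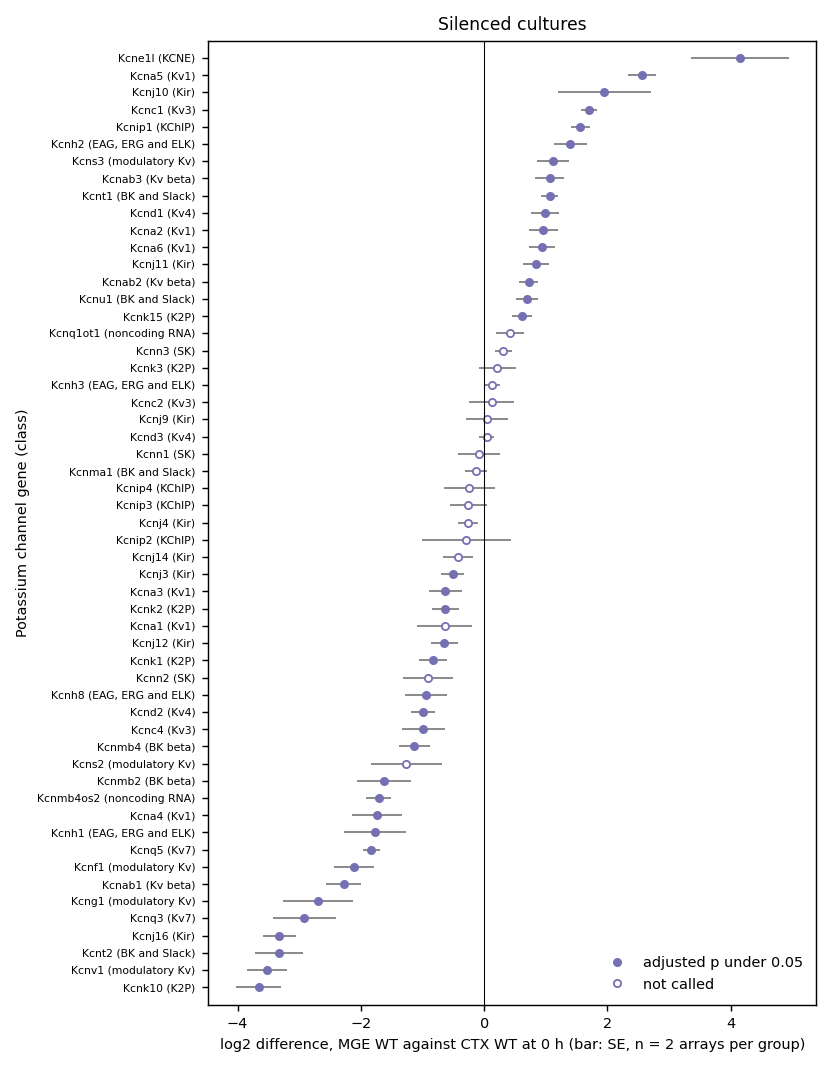
Difference in log2 intensity between MGE WT and CTX WT cultures at 0 h for the 55 tested potassium channel genes in order of size, with bars for the SE (2 arrays per group) and filled points for an adjusted p under 0.05. Of the 55, 16 were higher in MGE, among them Kcnc1 (1.70), and 22 lower, among them Kcnk10 (-3.66). The value of Kcne1l (4.15) is approximate, since its CTX WT arrays at 0 h lay below the array median.

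The 29 members that were not tested included 7 of 15 inward rectifiers, 7 of 12 tandem-pore genes, 4 of 5 KCNE genes and 4 of 9 modulatory Kv genes. Among them, picked after its values were seen, Kcnh5, an EAG channel, had 5.70 and 5.36 in MGE KO against 4.62 and 4.57 in MGE WT arrays at 6 h, and 5.40 and 5.65 in CTX KO against 4.30 and 4.04 in CTX WT arrays. At 0 h it had 3.93 and 3.73 in MGE KO against 3.78 and 3.72 in MGE WT arrays, and 4.15 and 3.99 in CTX KO against 3.94 and 4.04 in CTX WT arrays. The KO arrays at 6 h thus lay above the WT arrays in both cell types, at levels below the array median. In the fit with no filter it was called in CTX KO against WT at 6 h (1.35 ± 0.17, adjusted p = 0.0076) and in the average over times and cell types (0.46 ± 0.07, 0.031). The 29 were at or below the array median on at least 23 of 24 arrays, which does not show that the transcripts were absent.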

How the data were processed

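Messenger RNA was measured on 24 arrays (12 groups of 2) from total RNA amplified before hybridization. Per the submitters' processing notes the values were made with RMA (version not given), and the authors deposited one linear intensity per probe set, from 6.6074 to 29464 over 45101 probe sets. RMA gives arrays a common distribution, which hides any change common to most genes. The sources used here do not say if MGE and CTX arrays were processed in 1 run. Intensities were converted to log2.

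Of the probe sets 34958 named 1 gene, 932 several and 9211 none. Of these, 34754 matched RefSeq (GRCm38.p6) by Entrez identifier, with 0 symbols changed. The probe set with the highest mean stood for each of 18194 genes, and 46 of 84 members had several. A gene was tested (12378 were) if 2 or more arrays exceeded their median.

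A model of 12 group means was fitted to all 24 arrays in limma 3.58.1 (R 4.3.3; 12 residual and 2.41 prior degrees of freedom), two-sided, with Benjamini-Hochberg adjustment over all genes tested. The script was tested on simulated data. Of the 23 comparisons 1, the difference between MGE and CTX in the KO 6 h response, was added after seeing the data. Eligible to be named were per comparison the 12 called members that rose most and the 12 that fell most, in each subfamily the brightest member and up to 3 called ones (else the 2 most changed), and up to 3 genes of each further list. Members and lists were chosen with earlier results of these data known. The labels number arrays 1 and 2 in every group. Same-numbered arrays deviated together in CTX cultures (correlations of 0.11 to 0.71 between groups) but not in all MGE pairs (-0.23 to 0.86), so blocked values are given beside results whose call they change. Alternatives were no filter, a stricter filter, the mean of all probe sets, cyclic loess scaling, a replicate block, fits of 1 cell type, and each array left out.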

Additional observations from a re-analysis of the deposited data

Results flagged for a closer look

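The response to 6 h of KCl differed between MGE and CTX cultures for 7 potassium channel genes in WT and for 6 in KO cultures, by a test of the difference itself (limma, adjusted p under 0.05, 2 arrays per group). In KO cultures the difference, MGE response minus CTX response, was 2.29 for Kcnj16, 2.01 for Kcna2, 2.01 for Kcnt2, 1.04 for Kcnj4, 0.80 for Kcnq5 and -1.81 for Kcnn3. In WT cultures it was 2.64 for Kcnj16, 1.99 for Kcna2, 2.29 for Kcnt2, 0.94 for Kcnj4, 1.03 for Kcnq5, -1.53 for Kcnn3 and -0.91 for Kcnu1. For Kcnu1 it was -0.86 in KO cultures and not called (adjusted p = 0.052, or 0.015 with the replicate block). Kcnj16 and Kcna2 rose in MGE and fell in CTX cultures of both genotypes, and Kcnn3 rose in CTX cultures of both genotypes. KO and WT cultures used separate arrays.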

How the results depend on the processing

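With 1 array left out at a time, the number of potassium channel genes called ranged from 5 to 8 in MGE KO and 6 to 25 in MGE WT cultures at 6 h, and from 10 to 20 in CTX WT cultures at 6 h. The lowest MGE WT count came without array 1 at 6 h and the highest without array 1 at 0 h. At 1 h in MGE WT cultures it ranged from 0 to 3. The difference between MGE and CTX responses ranged from 3 to 5 in KO and 4 to 14 in WT cultures at 6 h, and from 0 to 1 in WT cultures at 1 h. KO against WT ranged from 0 to 11 in MGE at 0 h, 0 to 2 in CTX at 6 h, 0 to 12 averaged over times and cell types, and 0 to 2 for the MGE difference in the 6 h response. The counts of 3, 11, 12, 14 and 1, and the 2 for the MGE difference, all came without MGE WT array 1 at 0 h, leaving its group with 1 array, assumed to vary like the other groups.

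With the replicate block, 1 member (Kcnd3) was called in MGE KO against WT at 6 h, 1 (Kcnj4) in the averaged comparison and 14 in the MGE and CTX difference in WT cultures, and no named call was lost. Over all genes the same blocked comparisons called 0.0808%, 0.25% and 16.3%. With the mean of all probe sets, 1 was called in MGE KO against WT at 6 h and 2 in the averaged comparison. Without a filter, 1 (Kcnh5) was called in CTX KO against WT at 6 h and 1 (Kcnh5) in the averaged comparison. The cause of these changes was not tested. No named call changed sign under the alternatives run. The balance of member calls did turn over in both CTX cultures at 6 h. Falls outnumbered rises in the main fit, and rises outnumbered falls under cyclic loess. There the all-gene median moved from -0.11 to 0.04 in CTX KO and from -0.1 to 0.03 in CTX WT cultures. The turnover could not be set against all genes, since their calls under cyclic loess were not counted. The share of all genes called was also not counted for the fits with 1 array left out. The number of arrays, 2 per group, limits the precision of every value.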
